A study of Mus musculus with 8 samples.

Results

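The gene cluster around Nanog on mouse chromosome 6 was followed in embryonic stem cells that had lost an enhancer. The 7 genes were the listed members of the cluster, found by symbol among the 17721 genes used: Phc1, Apobec1, Gdf3, Dppa3, Nanog, Slc2a3 and Foxj2. All 7 were found, each with a single row per sample, and all 7 passed the filter of a mean of at least 1 FPKM (a read count corrected for gene length and library size). Total RNA of 8 samples of ES-E14TG2a cells (strain 129/Ola) had been sequenced. There were 2 samples each of unedited cells (WT) and of the knockouts E1-KO, E2-KO and E3-KO, in which CRISPR/Cas9 had removed an enhancer. All 8 samples, the WT ones included, were grown without feeder cells on gelatin in medium with serum, LIF, the GSK3 inhibitor CHIR99021 and the MEK inhibitor PD0325901. The labels do not place the enhancers on the genome, and the series' design text names Sox2 as the gene of interest. Whether a knockout was 1 clone is not given in the sources used here, and edited cells with intact enhancers were not analysed here. Each difference from WT therefore cannot be told apart from a difference in clone, culture or library.

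Nanog encodes a homeodomain transcription factor that holds mouse stem cells in the naive pluripotent state, and it acts together with Oct4 and Sox2. Dppa3 (also known as Stella or PGC7) shields DNA from maintenance methylation by binding UHRF1, and it marks naive cells, germ cells and the oocyte. Gdf3 is a ligand of the TGF-beta superfamily related to Nodal. Slc2a3 encodes the glucose transporter GLUT3, Phc1 a subunit of Polycomb repressive complex 1, Apobec1 a cytidine deaminase that edits RNA, and Foxj2 a forkhead transcription factor. The cluster is known as a region in which stem cell genes lie beside genes with broader expression.

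The deposited values summed to between 454974 and 532007 FPKM per sample, and absolute depth is unknown. The labelled cell type was borne out by its markers: the 8 pluripotency markers were all above 1 FPKM in every group, with sums between 1766 and 2232 FPKM over the 8 samples. Sums of markers of other cell types were low but not equal between groups. The 4 primitive endoderm markers found in the files summed to 1.55 to 1.65 FPKM in WT, 0.736 to 1.12 in E1-KO and E2-KO, and 2.44 to 4.69 in E3-KO. For the 6 trophoblast markers the sums were 15.6 to 16.0 FPKM in WT, 10.97 to 14.8 in E1-KO and E2-KO, and 18.4 to 23.3 in E3-KO. The 4 neural markers found summed to 15.4 to 17.3 FPKM in WT and to 23.7 to 27.2 in the knockouts, and the 7 fibroblast markers to 1.14 to 1.57 and 2.40 to 3.81 FPKM in the same order. Of the fibroblast markers 2 were at 0 in WT, 3 in each of E1-KO and E2-KO, and 0 in E3-KO. The 5 mesendoderm markers summed to 8.74 to 9.64 FPKM in WT and to 1.498 to 3.53 in the knockouts. The part of these shifts in the results below was not tested. In bulk RNA, fewer cells that express a gene and less RNA per cell cannot be told apart.

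In the GENCODE M21 annotation of GRCm38 the 7 genes lie in 1 stretch of chromosome 6. The files hold no coordinates and the submitters' processing notes name mm9, so every position here is that of the annotation. Phc1 (ENSMUSG00000040669, minus strand, chromosome 6, 122317731 to 122340561) lies at one end. It is followed by Apobec1 (ENSMUSG00000040613, minus strand, 122577792 to 122602444), Gdf3 (ENSMUSG00000030117, minus strand, 122605403 to 122610087) and Dppa3 (ENSMUSG00000046323, plus strand, 122626410 to 122630272). Nanog itself (ENSMUSG00000012396) is on the plus strand from 122707489 to 122714633. Slc2a3 (ENSMUSG00000003153, minus strand, 122727809 to 122801640) and Foxj2 (ENSMUSG00000003154, plus strand, 122819914 to 122845366) lie beyond it. Foxj2 overlaps an antisense gene, Gm26826, by 701 bases, and the strand setting of the authors' counting is not given, so reads from the pair cannot be told apart. Slc2a3 overlaps a processed pseudogene, Gm4482, and processed pseudogenes are also annotated for Nanog and Dppa3, so a share of their reads may have been placed at a copy or split.

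Promoter windows of RefSeq (GRCm38.p6) were at hand for Nanog, Phc1, Apobec1 and Foxj2. The Nanog window is shown because Sox2 is the gene the study names and this promoter carries the letters of the joint SOX and octamer element that is known at Nanog. The 250 bases before the first annotated start, at chr6:122707239-122707488 on the plus strand, are printed 5′ to 3′ with the element in capitals. It was searched as TTTGCAT, any 1 base, then ACAATG, or the reverse complement of these letters.
Nanog upstream region: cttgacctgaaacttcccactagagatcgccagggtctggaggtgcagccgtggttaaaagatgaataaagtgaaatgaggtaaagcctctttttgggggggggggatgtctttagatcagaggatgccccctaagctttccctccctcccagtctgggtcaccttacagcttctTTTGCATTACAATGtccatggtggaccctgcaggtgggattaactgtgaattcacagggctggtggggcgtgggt
The match, TTTGCATTACAATG, begins 75 bases before this start. It overlaps by construction the shorter letters ACAATG (SOX core) and the reverse complement of TGCAAA (octamer core). Of 32851 promoter windows of RefSeq, searched on both strands, 2 held the whole element (0.0061%), and both are overlapping windows of Nanog. The element searched was one already known at Nanog. A match there was thus foreseen, and the share is no test of this promoter. ACAATG was found in 12.6% of windows and TGCAAA in 15.5%. Among the other members Apobec1 held TGCAAA, and Phc1 and Foxj2 held neither. The full octamer ATGCAAAT, present in 1.74% of windows, was also searched and was found in no member, Nanog included. The TATA box letters TATAAA (13.6% of windows) were found in Apobec1 only. Such a match is a description of the letters, and the binding of a factor was not measured.

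In WT the 7 genes spanned a wide range of expression per length. Slc2a3, at 487.3 ± 11.1 FPKM, and Nanog, at 458.8 ± 11.9 FPKM (SD, n = 2), ranked 112th and 117th of the 17721 genes. Phc1 followed with 120.8 ± 0.427 FPKM and Gdf3 with 54.2 ± 1.06 FPKM (SD, n = 2). Dppa3 at 16.5 ± 2.14 FPKM and Apobec1 at 12.3 ± 0.611 FPKM were lower, and Foxj2 at 3.17 ± 0.277 FPKM was the lowest (SD, n = 2). The most abundant genes, Nanog and Slc2a3, are direct neighbours, and Dppa3 lies between Gdf3 and Nanog.

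Dppa3 and Slc2a3 fell in all 3 knockouts, whereas Gdf3 and Phc1 rose where E1 or E2 was removed and Nanog was not called in any. For E1-KO 4 of the 7 genes were called against WT at an adjusted p-value under 0.05, 2 higher and 2 lower, where 38% of all 11267 tested genes were called (15% higher, 23% lower). E2-KO again had 4 of 7, 2 in each direction, against 36.1% of tested genes (14.2% higher, 22% lower). E3-KO had 3 of 7, all lower, against 44.7% of tested genes (13.9% higher, 30.8% lower). Among the 529 other tested genes of chromosome 6 the shares called were 39.5% for E1-KO (16.6% higher, 22.9% lower), 38% for E2-KO (14.9% higher, 23.1% lower) and 70.3% for E3-KO (5.29% higher, 65% lower). Over the members the median log2 fold change was 0.15 (E1-KO), -0.07 (E2-KO) and -0.38 (E3-KO), and over all tested genes it was -0.06, -0.08 and -0.15. The last of these medians moved to about 0 by construction when samples were scaled by their median ratio, so changes of that size in E3-KO are within the shift that scaling makes. Values were tested as log2(FPKM + 1), a scale on which low genes appear to change less than they do, and adjusted p-values come from limma-trend over all tested genes. The 3 comparisons share the WT samples.

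**Figure D1:**
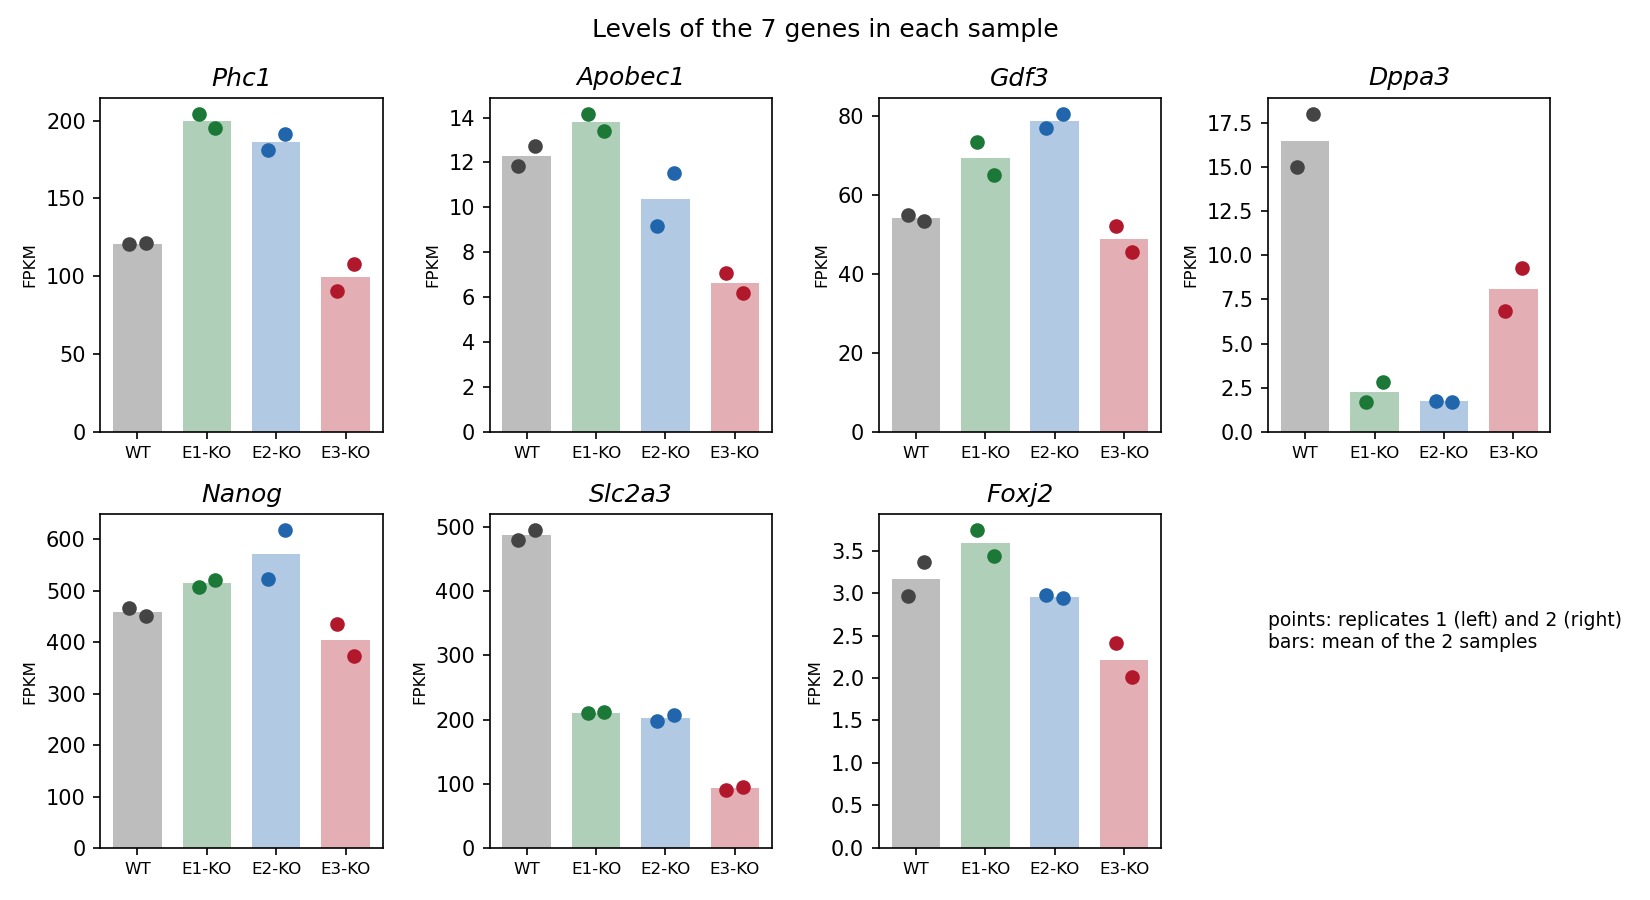
Level of each of the 7 genes in FPKM (linear axis from 0) in the 2 samples of WT, E1-KO, E2-KO and E3-KO, in chromosome order; points are samples and bars their mean. Slc2a3 is below WT in every knockout sample, Dppa3 is at or under 2.84 FPKM in E1-KO and E2-KO, and Phc1 is above WT in E1-KO and E2-KO.

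Nanog was measured at 467 and 450 FPKM in WT, 508 and 522 for E1-KO, then 524 and 618 for E2-KO and 435 and 373 for E3-KO (replicates 1 and 2). The E1-KO and E2-KO samples lay above both WT samples and the E3-KO samples below both, although 77%, 71.8% and 74.2% of tested genes had groups without overlap in these 3 comparisons. The log2 fold changes were 0.17 for E1-KO (standard error 0.127, limma-trend adjusted p = 0.33), 0.31 in E2-KO (adjusted p = 0.0855) and -0.19 in E3-KO (adjusted p = 0.257). None passed. The order of the group means, E2-KO, E1-KO, WT and E3-KO, therefore held no neighbours that differed beyond their spread. In E2-KO the change did pass with median-ratio scaling (0.40, limma-trend adjusted p = 0.0329) and without E2-KO replicate 1 (0.43, adjusted p = 0.0421). Quantile normalization took it to 0.01 (adjusted p = 0.981) and that in E1-KO to -0.02, so no direction is given for Nanog. Between the ends of the order E3-KO was lower than E2-KO (-0.50, limma-trend adjusted p = 0.0307). This call was lost in the fit of the 4 samples alone (adjusted p = 0.16), with each of the 3 other scalings (-0.41 to -0.33, adjusted p = 0.0541 to 0.149) and with all genes above 0 (0.0655). It was also lost without WT replicate 1 or 2 (0.0671 and 0.0676), E1-KO replicate 1 or 2 (0.0642 and 0.0644), E2-KO replicate 2 (0.0837) or E3-KO replicate 2 (0.11, all limma-trend adjusted p-values).

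Sox2, which acts with Nanog, was at 133.4 ± 4.05 FPKM in WT and at 59.1 ± 1.58 in E1-KO (SD, n = 2), which is -1.16 on the log2 scale (limma-trend adjusted p = 0.000168). Nanog in the same samples was at 0.17 from WT and not called. Pou5f1, which encodes Oct4, was at 371 FPKM in WT and 448 FPKM in E1-KO, and this difference did not pass (0.27, adjusted p = 0.138). Sox2 was also called lower in E2-KO (-0.34, limma-trend adjusted p = 0.0314) and in E3-KO (-0.50). The call in E2-KO was lost with median-ratio scaling (-0.25, limma-trend adjusted p = 0.071), without the trend (0.0519) and in the fit of the 4 samples (0.0567). It was also lost when some single samples were left out. That in E3-KO held under each of the 20 alternatives.

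Dppa3 was measured at 15.0 and 18.0 FPKM in WT, 1.65 and 2.84 for E1-KO, then 1.75 and 1.68 for E2-KO and 6.87 and 9.27 for E3-KO. Every knockout sample was below both WT samples, and the E3-KO samples lay between WT and the other knockouts without overlap. The log2 fold changes were -2.45 in E1-KO (standard error 0.203, limma-trend adjusted p = 0.000119), -2.68 in E2-KO (adjusted p = 8.89e-05) and -0.96 in E3-KO (adjusted p = 0.00524). On the linear scale the mean changed by -86.4% (E1-KO), -89.6% (E2-KO) and -51.1% (E3-KO). The E3-KO level exceeded that of E1-KO by 1.49 (standard error 0.203, limma-trend adjusted p = 0.00118) and that of E2-KO by 1.73 (adjusted p = 0.00149), while E2-KO and E1-KO overlapped (-0.23, adjusted p = 0.578). Of the 6 other germ cell markers listed (Ddx4, Dazl, Nanos3, Mael, Sycp3 and Piwil2), 0 were higher and 2 lower in E1-KO (Dazl and Piwil2), 1 was lower in E2-KO (Dazl), and for E3-KO 1 was higher (Mael) and 3 lower (Ddx4, Dazl and Piwil2). Among all tested genes 15% were higher and 23% lower (E1-KO), then 14.2% and 22% (E2-KO) and 13.9% and 30.8% (E3-KO). With 6 markers these counts cannot be told from such shares. All 6 were at 1 FPKM or more in each group, with sums of 176 to 180 FPKM in WT, 79.9 to 110 in E1-KO, 121 to 126 in E2-KO and 99.5 to 135 in E3-KO. Most of each sum was Dazl, an RNA-binding protein of germ cells, which had a mean of 152 FPKM in WT and 71.8 in E1-KO. The order of these sums was not that of Dppa3, and their part in its fall was not tested.

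Gdf3 was measured at 54.9 and 53.4 FPKM in WT, 73.2 and 65.0 for E1-KO, then 76.9 and 80.4 for E2-KO and 52.0 and 45.5 for E3-KO. The samples of E1-KO and E2-KO were above WT and those of E3-KO below. Gdf3 rose by 0.34 in E1-KO (standard error 0.105, limma-trend adjusted p = 0.0301) and by 0.53 in E2-KO (adjusted p = 0.0053), and its log2 fold change in E3-KO was -0.15 (adjusted p = 0.262), which became 0.02 with median-ratio scaling. The rise in E1-KO was small. It did not pass with quantile normalization (0.31, adjusted p = 0.0525) or without any 1 of its 4 samples (limma-trend adjusted p = 0.107 without WT replicate 1, 0.153 without WT replicate 2, 0.207 without E1-KO replicate 1 and 0.0547 without E1-KO replicate 2). E3-KO was below both other knockouts, with log2 differences of -0.50 from E1-KO (adjusted p = 0.00885) and -0.68 from E2-KO (adjusted p = 0.00404). The former was lost without E1-KO replicate 1 (-0.41, adjusted p = 0.0916).

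Slc2a3 was measured at 479 and 495 FPKM in WT, 210 and 211 for E1-KO, then 197 and 207 for E2-KO and 90.8 and 94.3 for E3-KO. No knockout sample came near WT, and E3-KO was below the other knockouts. The log2 fold changes were -1.20 in E1-KO (standard error 0.0924, limma-trend adjusted p = 8.38e-05), -1.26 in E2-KO (adjusted p = 7.74e-05) and -2.38 in E3-KO (adjusted p = 7.12e-06). No difference beyond the spread was seen between E2-KO and E1-KO (-0.06, adjusted p = 0.773). Between knockouts, E3-KO was lower than E1-KO (-1.18, adjusted p = 0.000155) and lower than E2-KO (-1.12, adjusted p = 0.000551). In WT Slc2a3 and Nanog had been at near equal levels, and in E3-KO Nanog was at 404 ± 44 FPKM and Slc2a3 at 92.6 ± 2.48 FPKM (SD, n = 2).

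Phc1 was measured at 120.5 and 121 FPKM in WT, 204 and 195 for E1-KO, then 181 and 191 for E2-KO and 90.5 and 108 for E3-KO. It rose by 0.72 in E1-KO (standard error 0.107, limma-trend adjusted p = 0.00137) and by 0.62 in E2-KO (adjusted p = 0.003), which on the linear scale was 65.3% and 54.2% above WT. In E3-KO both samples lay below WT, with a log2 fold change of -0.29 that did not pass (adjusted p = 0.0554). It passed there without E3-KO replicate 2 (-0.41, adjusted p = 0.0178) and without either E2-KO sample (adjusted p = 0.0471 and 0.0472 without E2-KO replicates 1 and 2). Phc1 was lower in E3-KO than in E1-KO (-1.01, adjusted p = 0.000432) and than in E2-KO (-0.91, adjusted p = 0.00152).

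Apobec1 was measured at 11.9 and 12.7 FPKM in WT, 14.2 and 13.4 for E1-KO, then 9.19 and 11.5 for E2-KO and 7.09 and 6.17 for E3-KO. The E3-KO samples were the lowest, and Apobec1 fell there by 0.80 on the log2 scale (standard error 0.134, limma-trend adjusted p = 0.00177). It was not called in E1-KO (0.15, adjusted p = 0.392) or E2-KO (-0.23, adjusted p = 0.204). Foxj2 was measured at 2.97 and 3.36 FPKM in WT, 3.74 and 3.44 for E1-KO, then 2.98 and 2.94 for E2-KO and 2.41 and 2.01 for E3-KO. Its log2 fold changes of 0.14, -0.07 and -0.38 did not pass (limma-trend adjusted p = 0.456, 0.707 and 0.0527). That in E3-KO passed without the trend of the spread on expression (adjusted p = 0.0284) and without E3-KO replicate 1 (-0.47, adjusted p = 0.0497).

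Between E1-KO and E2-KO, 0 of the 7 genes were called by limma-trend, where 0.834% of tested genes were (0.488% higher, 0.346% lower). At an unadjusted p under 0.05 it was 1 gene, Apobec1 (log2 fold change -0.39 in E2-KO, unadjusted p = 0.0181), and 0 of the 7 passed under each of the 20 alternatives run. By contrast 6 of the 7 genes were called between E3-KO and E1-KO (25.8% of tested genes, 9.42% higher and 16.4% lower), 1 higher and 5 lower in E3-KO. Between E3-KO and E2-KO it was again 6 of 7 (15.6% of tested genes, 5.49% higher and 10.1% lower), 1 higher and 5 lower. The higher gene was Dppa3 in both. These differences include the drop of chromosome 6 in E3-KO that is given below. With the chromosome median subtracted, 3 of 7 genes were called against E1-KO (22.3% of all genes) and 2 of 7 against E2-KO (12%). Foxj2 was lower in E3-KO than in E1-KO (-0.52, limma-trend adjusted p = 0.0252), a call lost in the fit of the 4 samples (0.057) and without E1-KO replicate 1 (0.139), E1-KO replicate 2 (0.0783) or E3-KO replicate 2 (0.0913). Apobec1 was lower than in E1-KO (-0.96, adjusted p = 0.0014) and than in E2-KO (-0.57, adjusted p = 0.0231). The latter was lost in the fit of the 4 samples (0.0964), with scaling that leaves out the 50 highest genes (0.0617) and without E2-KO replicate 2 (0.0881) or E3-KO replicate 2 (0.0956).

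**Figure D2:**
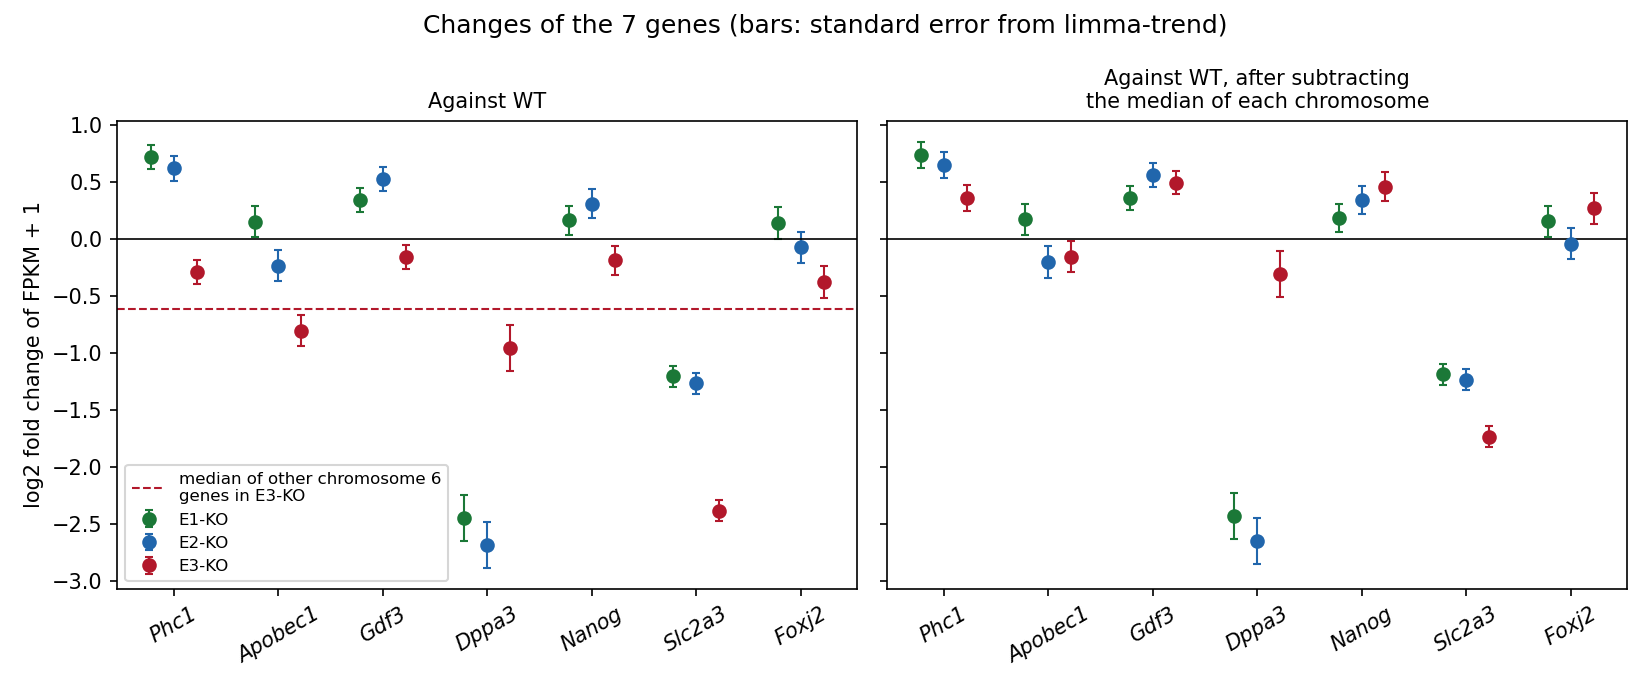
Log2 fold changes against WT of FPKM + 1 for the 7 genes in E1-KO, E2-KO and E3-KO, with standard errors from limma-trend, as measured (left) and after subtraction of the median of each gene's own chromosome in each sample (right); the dashed line is the median of the other chromosome 6 genes in E3-KO, -0.62. In E3-KO the points of Nanog, Gdf3, Phc1 and Foxj2 lie above that line and those of Slc2a3, Dppa3 and Apobec1 below it.

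In E3-KO the whole of chromosome 6 was lower. Over 396 genes of the chromosome that reached 5 FPKM on average, members left out, the median log2 difference from the WT mean was -0.63 in E3-KO replicate 1 and -0.72 in replicate 2. For the 7894 genes of other chromosomes it was -0.11 and -0.17, so that chromosome 6 stood apart by -0.52 and -0.55 in the 2 samples. The mean of these, -0.53, corresponds to 0.691 of the level of the other chromosomes. In E1-KO and E2-KO the difference was 0.03 in each. Of the 529 other tested genes of chromosome 6, 344 were called lower in E3-KO and 28 higher.

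The change of each member in E3-KO was then set against this drop by subtracting the median of its own chromosome in each sample before the fit. Relative to chromosome 6, 4 of the 7 genes were called, 3 higher and 1 lower, where 40.9% of the 11111 genes so tested were called relative to their own chromosome (20.8% higher, 20.1% lower). Gdf3 was higher than the chromosome by 0.50 (standard error 0.104, limma-trend adjusted p = 0.00549), Nanog by 0.46 (standard error 0.125, adjusted p = 0.0174) and Phc1 by 0.36 (standard error 0.114, adjusted p = 0.0309). None of these 3 had been called against WT: their measured log2 fold changes in E3-KO were -0.15, -0.19 and -0.29, where the median of the other chromosome 6 genes was -0.62. Slc2a3 was lower than the chromosome, with a relative log2 fold change of -1.73 (standard error 0.0932, adjusted p = 2.23e-05). Dppa3 (-0.31, adjusted p = 0.249), Apobec1 (-0.15, adjusted p = 0.399) and Foxj2 (0.27, adjusted p = 0.141) did not differ from the chromosome beyond their spread. For Dppa3 and Apobec1, which had been called against WT, the measured fall in E3-KO was therefore not separable from that of the chromosome.

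The relative calls of the 3 higher genes were not equally firm. That of Gdf3 was lost without WT replicate 2 (0.46, limma-trend adjusted p = 0.0506). Nanog lost its call with quantile normalization (0.21, adjusted p = 0.261), without WT replicate 1 (0.52, adjusted p = 0.0607), without WT replicate 2 (0.42, adjusted p = 0.112) and without E3-KO replicate 1 (0.36, adjusted p = 0.0782). Phc1 lost it with quantile normalization (0.25, adjusted p = 0.112), without the trend (adjusted p = 0.0502) and without WT replicate 1 (0.39, 0.107), WT replicate 2 (0.35, 0.136), E1-KO replicate 1 (0.36, 0.0528) or E3-KO replicate 2 (0.21, 0.154, all limma-trend adjusted p-values). Slc2a3 passed under each of the 22 alternatives, with relative changes from -1.95 to -1.70.

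Placed among the 529 other tested genes of the chromosome, Slc2a3 had a lower change in E3-KO than all but 4 of them (0.756% lower). Dppa3 was above 23.6% and Apobec1 above 35.5% of them. Foxj2 was above 65.2%, Phc1 above 73.7%, Nanog above 78.4% and Gdf3 above 80.9%. In E1-KO and in E2-KO, 0 of the 529 genes had a lower change than Dppa3, and Slc2a3 was above 2.84% and 2.46% of them. With the chromosome median subtracted the calls in these knockouts were again those of Dppa3, Slc2a3, Gdf3 and Phc1, with relative changes of -2.43, -1.19, 0.36 and 0.74 in E1-KO (37.7% of genes called, 17.9% higher and 19.8% lower) and -2.65, -1.23, 0.56 and 0.65 in E2-KO (35.5%, 17.3% higher and 18.1% lower). That of Gdf3 in E1-KO was lost with quantile normalization (0.29, limma-trend adjusted p = 0.0668) and without WT replicate 1 (0.0737), WT replicate 2 (0.142) or E1-KO replicate 1 (0.187).

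With the chromosome subtracted, Dppa3 was the member with the greatest difference between E3-KO and either other knockout. Its relative change in E3-KO exceeded that in E1-KO (difference 2.12, limma-trend adjusted p = 0.000301) and that in E2-KO (2.34, adjusted p = 0.000563), and all 529 other genes of the chromosome lay below it in both comparisons. Relative to their own chromosome 22.3% of all genes were called between E3-KO and E1-KO (12.8% higher, 9.44% lower) and 12% between E3-KO and E2-KO (7.41% higher, 4.59% lower). Slc2a3 was lower in E3-KO by the same measure, with -0.55 against E1-KO (adjusted p = 0.0037) and -0.50 against E2-KO (adjusted p = 0.0112). Phc1 was lower in E3-KO than in E1-KO (-0.38, adjusted p = 0.0427), and against E2-KO the difference of -0.29 did not pass (adjusted p = 0.134). For Gdf3 the relative differences were 0.13 (standard error 0.104, adjusted p = 0.392) and -0.07 (adjusted p = 0.717), and for Nanog 0.28 (standard error 0.125, adjusted p = 0.146) and 0.12 (adjusted p = 0.575). Alternatives were not run for these relative differences between knockouts, so how firm their calls are is not known.

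**Figure D3:**
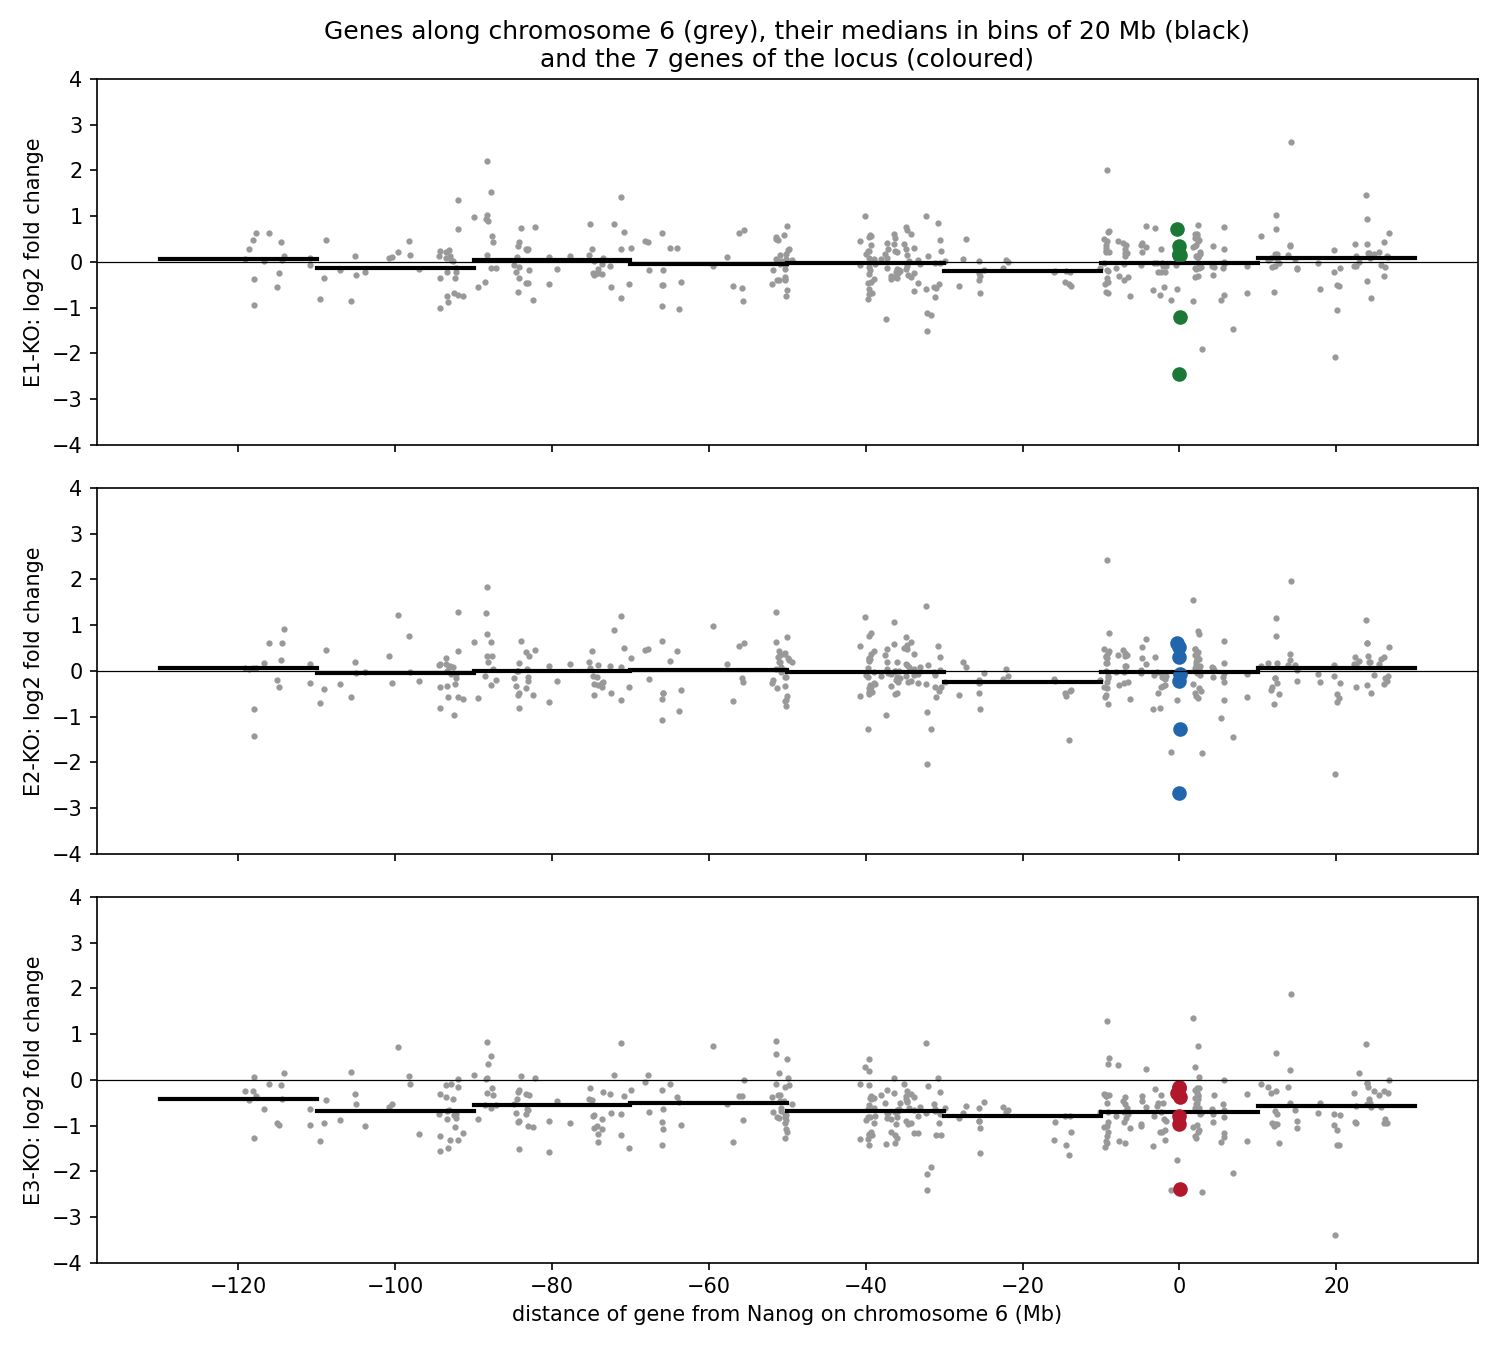
Log2 fold change against WT of chromosome 6 genes that averaged 5 FPKM or more (grey points) by distance from Nanog in Mb, for E1-KO, E2-KO and E3-KO; black lines are medians in bins of 20 Mb and coloured points the 7 genes of the locus. In E3-KO every bin median is below 0, between -0.80 and -0.43, and in E1-KO and E2-KO they lie between -0.23 and 0.08.

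The drop ran along the whole of the chromosome in E3-KO. In bins of 20 Mb of distance from Nanog, the median log2 fold change lay between -0.80 and -0.43. The bin around Nanog, with 97 genes within 10 Mb, had a median of -0.71. The least lowered bin, at the far end of the chromosome, held 15 genes, too few to be weighed. Taking the median of the 97 genes near Nanog in place of the whole chromosome changed 0 of the 7 relative calls.

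Within 1 Mb of Nanog, 12 of the 21 genes listed in the files were tested, 5 of them no members. Rimklb, which encodes a ligase that makes N-acetylaspartylglutamate, lies between Phc1 and Apobec1 and fell in all 3 knockouts. It was at 23.5 and 21.3 FPKM in WT, 14.4 and 14.3 for E1-KO, then 15.6 and 12.6 for E2-KO and 5.40 and 6.49 for E3-KO. Its log2 fold changes were -0.60 (limma-trend adjusted p = 0.00842), -0.64 (adjusted p = 0.00702) and -1.75 (adjusted p = 7.11e-05), and relative to the chromosome it was at -1.10 in E3-KO (adjusted p = 0.000452). The calls in E1-KO and E2-KO were lost without WT replicate 1 (-0.54, adjusted p = 0.0663, and -0.57, adjusted p = 0.0586), and that in E1-KO also without E1-KO replicate 1 (adjusted p = 0.051).

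M6pr, a receptor that carries lysosomal enzymes, ends next to the end of Phc1 on the other strand. It fell in E3-KO from 92.9 to 50.7 FPKM (log2 fold change -0.86, limma-trend adjusted p = 0.000295), which was not separable from the chromosome (relative -0.21, adjusted p = 0.0906). In E1-KO and E2-KO, where Phc1 rose, its log2 fold changes were -0.08 and -0.07 (adjusted p = 0.567 and 0.603). Necap1, an endocytic adaptor, had a log2 fold change of -0.30 in E3-KO (adjusted p = 0.0544) and was above the chromosome there by 0.35 (adjusted p = 0.0358). The former passed without E2-KO replicate 1 or 2 (adjusted p = 0.0395 and 0.0398). Mfap5, a microfibril protein, was not called against WT in any knockout (0.52, 0.61 and 0.24, adjusted p = 0.0928, 0.0598 and 0.407), and in E3-KO it was above the chromosome by 0.89 (adjusted p = 0.0101). Against WT it passed in E1-KO in the fit of the 4 samples (0.0306) and without E2-KO replicate 1 (0.0339) or 2 (0.033). In E2-KO it passed with quantile normalization (0.0453), with median-ratio scaling (0.0435) and without E2-KO replicate 2 (0.94, adjusted p = 0.00953). Clec4a1, a lectin gene at low level, went from 1.52 to 3.34 FPKM in E3-KO (0.78, adjusted p = 0.0342; relative to the chromosome 1.43, adjusted p = 0.00289). The call against WT was lost with a pseudocount of 0.1 (adjusted p = 0.099), with all genes above 0 (adjusted p = 0.0742) and without either replicate of WT (adjusted p = 0.129 and 0.105) or of E3-KO (adjusted p = 0.108 and 0.0974).

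**Figure D4:**
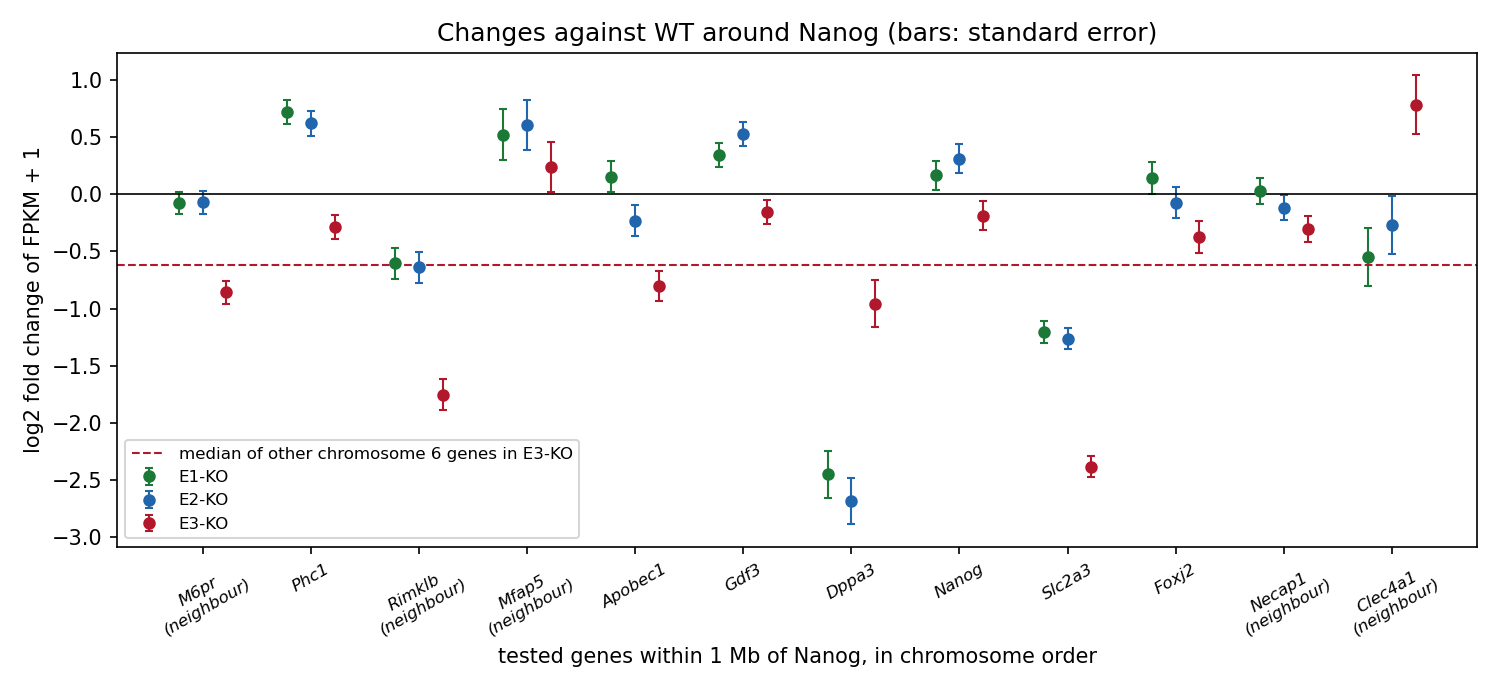
Log2 fold changes against WT of FPKM + 1, with standard errors, of the 12 tested genes within 1 Mb of Nanog in chromosome order, for E1-KO, E2-KO and E3-KO; the dashed line is the median of the other chromosome 6 genes in E3-KO. Adjacent genes moved apart, as Dppa3 between Gdf3 and Nanog, and Slc2a3 beside Nanog.

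Of the genes that work with Nanog or control it, all 22 listed were tested. For E1-KO 3 were called higher and 11 lower, for E2-KO 5 and 8, and for E3-KO 3 and 10. Over all tested genes the shares called higher and lower were 15% and 23% (E1-KO), 14.2% and 22% (E2-KO) and 13.9% and 30.8% (E3-KO). The list's median log2 fold changes were -0.19, -0.11 and -0.13, beside -0.06, -0.08 and -0.15 for all tested genes. Klf4, a Kruppel-like factor of the naive state, was at 170 ± 15.5 FPKM in WT and fell to 86.1 ± 2.58 (E1-KO), 75 ± 8.71 (E2-KO) and 80 ± 3.21 (E3-KO; SD, n = 2). Tfcp2l1, another naive factor, fell in all 3 knockouts (-1.01, -0.82 and -0.59, limma-trend adjusted p = 0.000331, 0.000921 and 0.0028). Tcf7l1, which represses Nanog and also lies on chromosome 6, rose in E1-KO (0.80, adjusted p = 0.00325) and E2-KO (0.75, adjusted p = 0.00471). In E3-KO its rise of 0.47 (adjusted p = 0.0272) was lost with all genes above 0 (adjusted p = 0.0557), in the fit of the 4 samples alone (adjusted p = 0.0537) and without WT replicate 1 (0.43, adjusted p = 0.127), WT replicate 2 (0.50, adjusted p = 0.0873) or E3-KO replicate 2 (0.23, adjusted p = 0.131). Otx2, a factor of the formative state, fell in all 3 knockouts (-1.34, -1.77 and -1.35).

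Of 19 genes of DNA methylation and the germ line, the setting in which Dppa3 acts, 6 were higher and 5 lower (E1-KO), then 5 and 6 (E2-KO) and 4 and 8 (E3-KO), with medians of 0.06, -0.15 and -0.19. The list thus moved both ways. In all tested genes 15% were higher and 23% lower (E1-KO), then 14.2% and 22% (E2-KO) and 13.9% and 30.8% (E3-KO). Dnmt3l, a cofactor of the de novo methyltransferases, was at 8.53 ± 0.218 FPKM in WT and reached 50.3 ± 6.63 (E1-KO), 53.4 ± 19.6 (E2-KO) and 44.3 ± 5.97 FPKM (E3-KO; SD, n = 2), with log2 fold changes of 2.42, 2.46 and 2.24. Dnmt3b, a de novo methyltransferase, rose by 1.08, 1.27 and 1.51. Its relative Dnmt3a rose by 1.44, 0.96 and 1.03 (limma-trend adjusted p = 0.00227, 0.0146 and 0.00832). For E2-KO that call was lost without WT replicate 1 (0.89, 0.0818), WT replicate 2 (1.03, 0.0573) or E2-KO replicate 1 (0.82, 0.0836), and for E3-KO without WT replicate 1 (0.95, 0.0521, all limma-trend adjusted p-values). Uhrf1, the partner that Dppa3 binds, was at 204 FPKM in WT, and its log2 fold changes of 0.28, 0.24 and 0.00 did not pass (limma-trend adjusted p = 0.0874, 0.147 and 0.979). Dppa2, a DNA-binding protein of stem cells that shares the naming of Dppa3 but lies on chromosome 16, rose in all 3 knockouts (1.40, 1.33 and 1.66). Kit, the receptor of stem cell factor, fell in all 3 (-1.20, -0.98 and -1.38), as did Prdm1, a regulator of germ cell fate (-1.20, -1.61 and -1.27).

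Gdf3 belongs with the ligands of the Nodal and activin pathway. Of 19 tested genes of this pathway, 1 was higher and 10 lower (E1-KO), then 1 and 12 (E2-KO) and 1 and 7 (E3-KO), with medians of -0.50, -0.61 and -0.32 beside -0.06, -0.08 and -0.15 for all tested genes. Over all tested genes 23%, 22% and 30.8% were called lower, and 15%, 14.2% and 13.9% higher. Lefty2, a feedback inhibitor and target of the pathway, was at 43 ± 0.622 FPKM in WT and fell to 15.6 ± 6.24 (E1-KO), 7.67 ± 3.45 (E2-KO) and 14 ± 3.29 FPKM (E3-KO; SD, n = 2). Acvr1b, the type I receptor, fell from 13.8 FPKM in WT to 8.25 (E1-KO), 6.39 (E2-KO) and 5.69 FPKM (E3-KO). The co-receptor Tdgf1 (Cripto), which GDF3 is known to need, was at 356 FPKM in WT. Its log2 fold change was 0.15 in E1-KO and -0.13 in E2-KO (limma-trend adjusted p = 0.301 and 0.367), where Gdf3 rose, and it fell in E3-KO (-0.34, adjusted p = 0.0307). Alternatives were not run for Tdgf1. Smad3, a transducer of the signal, fell in E1-KO (-1.03, adjusted p = 0.0111) and E2-KO (-1.17, adjusted p = 0.00684). The first of these calls was lost without WT replicate 2 (-0.91, adjusted p = 0.0801) or E1-KO replicate 1 (-0.65, adjusted p = 0.0756), and the second without WT replicate 2 (-1.05, adjusted p = 0.0561).

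For the family of Slc2a3, of 4 tested genes among the Slc2a transporters and hexokinases, Slc2a3 itself left out, the calls were 1 lower in E2-KO and 2 lower in E3-KO, and E1-KO gave none (limma-trend adjusted p = 0.177 to 0.452). Among all tested genes 23% (E1-KO), 22% (E2-KO) and 30.8% (E3-KO) were called lower, and 15%, 14.2% and 13.9% higher. Slc2a1, which encodes GLUT1, was at 95.2 ± 7.48 FPKM in WT and 78.6 FPKM in E1-KO (-0.28, adjusted p = 0.177). It fell to 58.7 ± 8.65 in E2-KO (-0.69, adjusted p = 0.00854) and 47.6 ± 5.47 in E3-KO (-0.99, adjusted p = 0.00125), where the former call was lost without WT replicate 1 (-0.61, adjusted p = 0.0652) or E2-KO replicate 1 (-0.55, adjusted p = 0.0517). Hk2, a hexokinase that lies on chromosome 6, fell in E3-KO (-0.88, adjusted p = 0.00117). The other chromosome 6 genes had a median of -0.62 there, with quartiles of -0.95 and -0.25, so Hk2 was within their middle range.

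Of 4 tested deaminases and cofactors of Apobec1, 3 were higher and 1 lower (E1-KO), then 2 and 1 (E2-KO) and 1 and 1 (E3-KO), with medians of 0.68, 0.29 and 0.16. For all tested genes the medians were -0.06, -0.08 and -0.15. The shares called higher and lower were 15% and 23% (E1-KO), 14.2% and 22% (E2-KO) and 13.9% and 30.8% (E3-KO). Syncrip was called higher against WT throughout, with log2 fold changes of 1.04 (E1-KO), 0.79 (E2-KO) and 1.07 (E3-KO). Apobec2 was called higher for E1-KO (0.92) and E2-KO (0.42) but not E3-KO (0.23). Apobec3 was called for E1-KO only (0.44, then 0.16 and 0.08). The calls of Syncrip for E3-KO and Apobec2 for E1-KO held under each alternative. The other calls of these genes were each lost without 1 or more of the samples. Rbm47, an RNA-binding cofactor of Apobec1 editing, was at 16 ± 0.948 FPKM in WT and fell to 2.34 ± 0.119 (E1-KO) and 3.24 ± 0.175 FPKM (E2-KO; SD, n = 2), where Apobec1 was not called. In E3-KO, where Apobec1 fell, Rbm47 was at 12.3 ± 0.936 FPKM (-0.35, limma-trend adjusted p = 0.0426). This call was lost with each of the 3 other scalings (limma-trend adjusted p = 0.087 to 0.314) and with all genes above 0 (0.0643). A pseudocount of 0.1 (0.0546), the replicate block (0.0534) and the fit of the 4 samples (0.0533) lost it too. It was also lost without either replicate of WT (adjusted p = 0.0991 and 0.223) or E3-KO (0.148 and 0.051) and without either E1-KO sample (0.0628 and 0.0638, all limma-trend adjusted p-values).

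Of the 19 tested genes of Polycomb repressive complex 1 other than Phc1, 2 were higher and 2 lower (E1-KO), then 3 and 2 (E2-KO) and 3 and 4 (E3-KO), with medians of 0.04, 0.02 and 0.03. For all tested genes the shares were 15% and 23%, then 14.2% and 22%, and 13.9% and 30.8%. Phc2 and Phc3, the paralogs of Phc1, were at 8.97 and 6.63 FPKM in WT against 120.8 for Phc1, and neither was called in any knockout. Rnf2, the catalytic subunit, was at 41.3 FPKM in WT with log2 fold changes of 0.10, -0.10 and 0.07 (limma-trend adjusted p = 0.445, 0.431 and 0.57). Scml2 fell in all 3 knockouts (-1.93, -1.98 and -0.89), though for E3-KO not without WT replicate 2 (-0.75, adjusted p = 0.0648). Pcgf1, a subunit gene on chromosome 6, fell in E3-KO (-1.42, adjusted p = 0.00031), where the median of the other chromosome 6 genes was -0.62. Of the Foxj genes Foxj3 was tested, and it fell in E2-KO (-0.44, adjusted p = 0.0166), a call lost with quantile normalization (-0.35, adjusted p = 0.0516) and without WT replicate 1 (-0.39, adjusted p = 0.112), WT replicate 2 (-0.50, adjusted p = 0.0609) or E2-KO replicate 2 (-0.42, adjusted p = 0.0543). The list of wider neighbours, 9 tested genes all on chromosome 6, had 0 higher and 3 lower (E1-KO), then 0 and 2 (E2-KO) and 1 and 6 (E3-KO), with medians of -0.11, -0.12 and -0.61. Of the 529 tested chromosome 6 genes other than members, 16.6% and 22.9%, then 14.9% and 23.1%, and 5.29% and 65% were called. Their medians were -0.05, -0.07 and -0.62, so in E3-KO the wider neighbours were near the chromosome as a whole.

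Genes with the most similar profile were sought among 8388 genes that averaged 5 FPKM or more, by the root mean square difference of the log2 change from WT over the 8 samples. Twf2 (0.0567), Tmem97 (0.0687) and Ccnyl1 (0.0739) were nearest to Nanog, and they lie on chromosomes 9, 11 and 1. Nearest to Dppa3 was Sdc4, a cell surface proteoglycan, with a difference of 0.256 and log2 fold changes of -2.48, -2.63 and -1.02, followed by Aim2 (0.317) and Dsp (0.447). Gdf3 was most like Smyd5 (0.0929), Mical1 (0.0969) and Aplf (0.0976), of which Smyd5 and Aplf lie on chromosome 6. Among the members, across the 8 samples, Pearson's r of log2(FPKM + 1) was 0.93 for Nanog with Gdf3, 0.89 for Gdf3 with Phc1 and -0.71 for Nanog with Dppa3. These values describe samples that share 4 groups, and the chromosome-wide drop was seen in the same 2 E3-KO samples for all of them; its part in r was not tested.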

How the data were processed

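Total RNA of 8 samples had been made into paired-end libraries. The authors deposited one list of gene values per sample. Trimmomatic 0.36, TopHat2 2.0.12, Cufflinks 2.2.1 and mm9 are named in the submitters' processing notes, without roles. The deposited values were taken as FPKM from the values and the Cufflinks entry. Annotation, strand setting and any scaling between samples are not given in the sources used here. FPKM already divide by depth and length, so a few very high genes can move all others.

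Each file listed 18774 rows and 17812 identifiers. Of 660 identifiers with more than 1 row, 569 were kept by their place in the file order and 91 left out, which left 17721 genes. Symbols matched for 17262 identifiers. Positions came from GENCODE M21 (GRCm38).

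Genes that averaged 1 FPKM or more were tested on log2(FPKM + 1) with limma-trend (limma 3.58.1, R 4.3.3), all 8 samples and 4 residual degrees of freedom, two-sided, with Benjamini-Hochberg adjustment over all 11267 genes and a threshold of 0.05. For the fit relative to the chromosome, the median of the genes of each chromosome that averaged 5 FPKM or more was subtracted in each sample. The labels call the samples biological duplicates. The fits were tested on simulated data.

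The members, gene lists, motifs and tests were chosen with earlier results of these data known. Genes were named as members, as tested genes within 1 Mb of Nanog, as up to 4 called genes with the largest change per list and knockout, and as the 3 genes most like Nanog, Dppa3 and Gdf3. Genes of the lists given to show no call or a partner (Pou5f1, Tdgf1, Uhrf1, Dazl, Phc2, Phc3, Rnf2) were picked after their values were seen. Alternatives were the replicate block, the 4 samples of a pair alone, quantile, median-ratio and sum scaling without the 50 highest genes, no trend, other filters, a pseudocount of 0.1, an adjusted p-value under 0.01, other handling of repeated rows, leaving out each of the 8 samples, and 2 other chromosome medians. Figures used matplotlib 3.10.9.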

Additional observations from a re-analysis of the deposited data

Results flagged for a closer look

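The changes of the members differed between knockout lines where E3-KO was involved, by a direct test of E3-KO against the other line (limma-trend adjusted p under 0.05). Against E1-KO the log2 differences of E3-KO were 1.49 for Dppa3, -0.50 for Gdf3, -1.18 for Slc2a3, -0.96 for Apobec1, -1.01 for Phc1 and -0.52 for Foxj2. Against E2-KO they were -0.50 for Nanog, 1.73 for Dppa3, -0.68 for Gdf3, -1.12 for Slc2a3, -0.57 for Apobec1 and -0.91 for Phc1. All but those of Dppa3 were negative, as was the chromosome 6 shift of -0.53 in E3-KO, and after its subtraction 3 of 7 genes were called against E1-KO (Dppa3, Slc2a3 and Phc1), where 22.3% of all genes were, and 2 of 7 against E2-KO (Dppa3 and Slc2a3), where 12% were. No alternatives were run for these calls after subtraction.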

How the results depend on the processing

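Among the members and the other named genes for which alternatives were run, no value passed the threshold with the opposite direction. Alternatives were not run for Pou5f1, Tdgf1, Uhrf1, Phc2, Phc3 and Rnf2. Nor were they run for the germ cell markers Ddx4, Dazl, Nanos3, Mael, Sycp3 and Piwil2. The differences between knockouts relative to the chromosome had no alternatives either. For members 1231 of 1293 values kept their side of the threshold, 47 fell below it and 15 passed it newly; for the other named genes these were 2840 of 3027, 148 and 39. An adjusted p-value under 0.01 gave 2249 genes for E1-KO against WT, 2090 for E2-KO, 3056 for E3-KO, 2537 for E3-KO relative to the chromosome, 1413 for E3-KO against E1-KO, 575 for E3-KO against E2-KO and 0 for E2-KO against E1-KO. E2-KO against E1-KO gave 31 genes with the replicate block, 1 in the fit of its 4 samples, 1 with all genes above 0 and 58 with a mean of at least 5 FPKM. E3-KO against E2-KO gave 671 in the fit of its 4 samples. Relative to the chromosome, 2 members were called in E3-KO with quantile normalization and 2 at an adjusted p-value under 0.01. Leaving out 1 sample gave 2039 to 4672 genes for E1-KO, 1869 to 4452 for E2-KO, 2827 to 5338 for E3-KO, 2 to 262 for E2-KO against E1-KO, 1309 to 3281 for E3-KO against E1-KO, 974 to 1554 for E3-KO against E2-KO, and 2401 to 4868 genes with 1 to 4 members for E3-KO relative to the chromosome. The lowest counts came without WT replicate 2 for each knockout against WT and for the relative fit, without E2-KO replicate 1 for both comparisons with E2-KO, and without E1-KO replicate 1 for E3-KO against E1-KO. The chromosome 6 shift stayed between -0.55 and -0.52. A lone sample left in a group was taken to vary like the other groups, and the cause of these moves was not tested. Samples with the same replicate number did not deviate together (mean correlation 0.0049, range -0.042 to 0.089 over 6 pairs), and the replicate block changed 0 calls of members. With the block Rbm47 was no longer called in E3-KO (limma-trend adjusted p = 0.0534) and Mfap5 was called in E2-KO (0.0329). Absolute depth is unknown, so counting error at Foxj2 and Dppa3 could not be given.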

Other observations

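The 9 other identifiers within 1 Mb of Nanog had means below 1 FPKM and were not tested. The long non-coding gene 1700063H04Rik, between Phc1 and Rimklb, was at 0 and 0.121 FPKM in WT. It was higher in each knockout sample: 0.844 and 1.82 (E1-KO), 1.10 and 0.275 (E2-KO), 0.408 and 0.242 FPKM (E3-KO). The lectin gene Clec4a3 was at 0 and 0.191 FPKM in WT and 0.712 and 0.513 in E3-KO. Both genes were picked from the 9 by their values, which are near 0. Groups without overlap with WT were common, at 77% (E1-KO), 71.8% (E2-KO) and 74.2% (E3-KO) of tested genes.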
